A study of Homo sapiens with 3 samples.

Results

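The S100 genes encode small EF-hand proteins, which mostly work as dimers and hold partner proteins such as annexins and myosin. Most of the proteins, though not all, bind calcium through a pair of helix-loop-helix motifs and change shape when they do. Most of the genes lie in a cluster on chromosome 1q21. Breast epithelium and its tumours are known to express several, with S100A4, S100A8 and S100A9 often studied in invasion and inflammation. The 10 genes described here are S100A1, S100A4, S100A6, S100A8, S100A9, S100A10, S100A11, S100A13, S100A14 and S100A16, out of 21 S100 protein genes and 22494 genes with a symbol in the count tables. The list was chosen on measured values of these data. S100A1 was selected by its place among the lowest ratios between sensitive cells in coculture and in monoculture, so that comparison is a description and carries no test.

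CAMA-1 is an established line of luminal, estrogen receptor-positive breast cancer cells. Sensitive CAMA-1 cells carried the yellow fluorescent transgene mVenus, and resistant CAMA-1 cells, which had been grown for months with ribociclib, an inhibitor of CDK4/6, carried mCherry, a red one. Spheroids of 2000 plated cells were sensitive only (100% sensitive), coculture (50% sensitive) or resistant only (0% sensitive), all were treated with 1 µM ribociclib for 11 days, and no untreated library was analysed here. Each of the 3 conditions had 1 single-cell library, and the transgene split the coculture into its sensitive and resistant cells, which gave 4 populations. With 1 library per condition there was no test across samples, no p-value was computed, and cells were not treated as replicates.

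The 3 libraries held 40372 barcodes, of which 19237 had been annotated by the authors as cells of a population. These were 3329 sensitive cells of the monoculture, 2059 sensitive and 6292 resistant cells of the coculture and 7557 resistant cells of the monoculture, the same numbers of cells as the study states. The median cell had between 27622 and 35443 UMIs (unique molecular identifiers, 1 per captured RNA molecule). Sensitive monoculture cells stood apart from the others in that 89.0% were annotated as G1 phase, against 49.7% to 55.3% elsewhere, and in that a median of 20.9% of their UMIs were mitochondrial, against 15.2% to 17.3% elsewhere. All 8 luminal markers were at 10 CPM or more in every population, and the myeloid, the fibroblast and the endothelial marker genes each summed to at most 3.62 CPM. The 5 basal or myoepithelial markers summed to 34.0 CPM in sensitive monoculture and 1.15 CPM in resistant monoculture, and to 13.9 and 3.12 CPM in the sensitive and resistant cells of the coculture, with KRT5 and TP63 at or near 0 and MYLK as most of the sum. Pairs of libraries shared 7 to 17 barcode sequences among annotated cells.

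All 10 genes lie on chromosome 1 (GRCh37), between S100A10 at chr1:151955391-151966335 and S100A1 at chr1:153600402-153604515. S100A1 is on the plus strand and shares 235 exonic bases with S100A13, at chr1:153591263-153603836 on the minus strand. The 250 bases before the RefSeq start site are printed here for S100A1 and S100A10, which differed most between populations, and for S100A8 and S100A9, which differed most between clusters of resistant cells. For S100A1 the RefSeq start, at 153600910, is inside the position given above. Its printed window therefore lies within the positions given for S100A1 and S100A13. Capitals mark a TATA box, spelled TATAAA, on either strand. They also mark a GC box, spelled GGGCGG on the printed strand. On the opposite strand it reads CCGCCC. Both motifs were chosen after the sequences had been seen. Each sequence is written along the gene's own strand and was placed on GRCh37 by exact match.

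S100A1, chr1:153600660-153600909, plus strand: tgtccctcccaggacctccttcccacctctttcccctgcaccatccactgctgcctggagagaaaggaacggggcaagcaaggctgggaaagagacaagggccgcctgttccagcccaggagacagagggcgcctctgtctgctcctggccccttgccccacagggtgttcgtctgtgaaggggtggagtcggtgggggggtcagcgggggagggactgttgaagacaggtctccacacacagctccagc
S100A10, chr1:151966336-151966585, minus strand: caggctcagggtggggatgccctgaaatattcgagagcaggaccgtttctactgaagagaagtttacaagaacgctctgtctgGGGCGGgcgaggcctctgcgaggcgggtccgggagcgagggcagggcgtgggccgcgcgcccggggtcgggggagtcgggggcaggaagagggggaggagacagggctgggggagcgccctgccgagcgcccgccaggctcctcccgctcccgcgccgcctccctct
S100A8, chr1:153363550-153363799, minus strand: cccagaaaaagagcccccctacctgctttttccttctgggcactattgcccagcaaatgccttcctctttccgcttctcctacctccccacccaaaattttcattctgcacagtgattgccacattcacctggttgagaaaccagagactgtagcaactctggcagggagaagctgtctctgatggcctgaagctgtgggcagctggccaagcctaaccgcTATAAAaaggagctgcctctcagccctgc
S100A9, chr1:153330080-153330329, plus strand: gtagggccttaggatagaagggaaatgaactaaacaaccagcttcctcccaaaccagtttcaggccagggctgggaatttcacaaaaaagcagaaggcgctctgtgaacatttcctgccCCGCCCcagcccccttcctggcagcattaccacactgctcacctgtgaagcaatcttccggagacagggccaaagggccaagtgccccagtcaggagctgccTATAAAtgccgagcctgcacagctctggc

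S100A8 and S100A9 each held a TATA box 29 bases before the start, a motif found in 10.7% of 35116 upstream windows of this length. S100A10 held a GC box, found in 42.6% of windows, and 24 CpG dinucleotides. S100A1 held neither motif and 6 CpG, a number that 41.1% of windows do not exceed. Among all 10 genes, 4 had a TATA box and 6 a GC box in any of their RefSeq windows. S100A8 and S100A13 had 3 windows and S100A16 had 2, so these counts of genes cannot be set beside the shares of single windows. The motifs are matches of letters and say nothing of a factor bound there.

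Levels are given as CPM, the UMIs of a gene per 1000000 UMIs of its population, with exact 95% Poisson intervals where printed. The chemistry counts molecules at their 3' end, so levels of different genes could be set side by side without a correction for length. The 10 genes together held 1.35% to 1.47% of all UMIs. S100A6, calcyclin, was the most abundant, with 5996 CPM in sensitive and 5589 CPM in resistant monoculture and with 5589 and 6476 CPM in the sensitive and resistant cells of the coculture, and made up 40.8% to 45.3% of the UMIs of the 10. S100A11, S100A14, S100A13, S100A16 and S100A10 followed, between 722 and 2465 CPM. S100A4 and S100A1 lay between 45.2 and 223 CPM, and S100A8 and S100A9 between 9.21 and 45.6 CPM. S100A6 was the first and S100A9 the last in every population. S100A1 stood above S100A4 in sensitive monoculture and below it in the other 3 populations, and S100A10 likewise stood above S100A13 and S100A16 in sensitive monoculture and below both elsewhere.

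**Figure D1:**
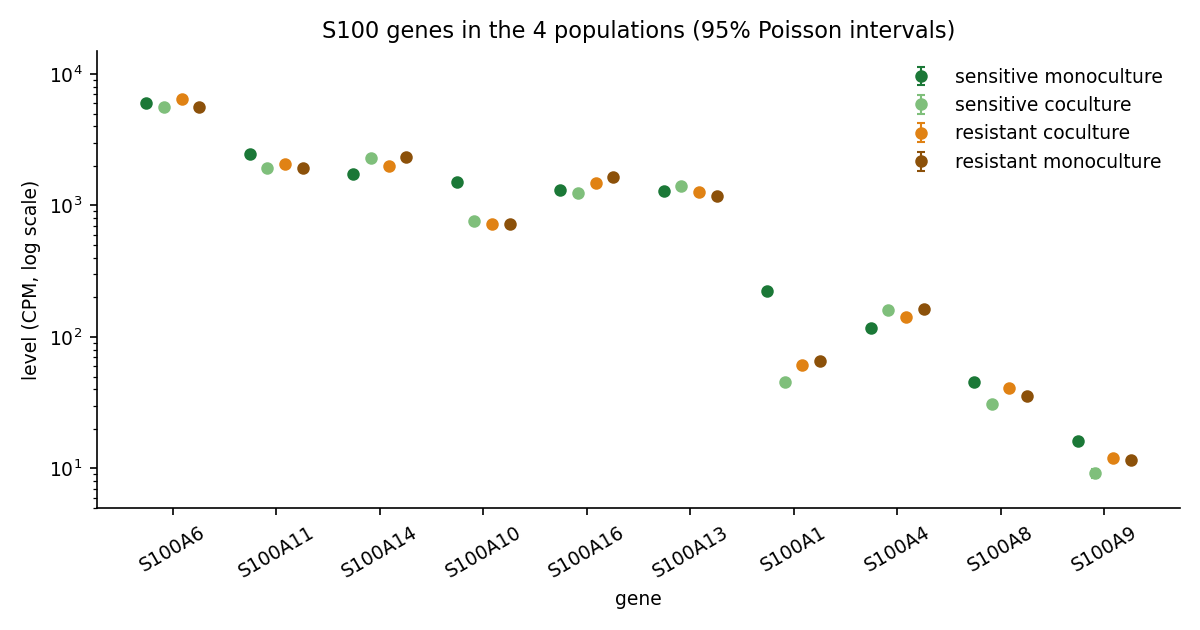
Level of each S100 gene in the 4 populations, in CPM on a log axis, with 95% Poisson intervals that are mostly narrower than the points. S100A1 (223 CPM) and S100A10 (1510 CPM) in sensitive monoculture sit furthest above their other 3 populations. S100A8 (45.6 CPM), S100A9 (16.3 CPM) and S100A11 (2465 CPM) are also highest there, by less.

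S100A1, which in heart muscle binds the ryanodine receptor and the SERCA calcium pump, was at 223 CPM (220 to 226) in sensitive and 65.2 CPM (64.3 to 66.2) in resistant monoculture. In the coculture it was at 45.2 CPM (43.7 to 46.8) in sensitive and 61.7 CPM (60.6 to 62.8) in resistant cells. The sensitive monoculture alone was high, and sensitive cells of the coculture were the lowest of the 4. Between sensitive cells the level was 4.94-fold lower in coculture (4.76 to 5.13, exact binomial interval of the ratio of the 2 counts), a log2 ratio of -2.28. These intervals cover counting error only. Log2 ratios were taken after adding 1 CPM, and a gene counted as past the fold at 2-fold if the populations compared held 50 or more of its UMIs. A gene under 1 CPM in both populations could not pass 2-fold by this rule.

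Of the 10 genes, S100A1 alone was past 2-fold lower between sensitive cells, and none was past 2-fold higher. Of 12327 genes with enough UMIs, 1.04% were past 2-fold lower and 1.53% past 2-fold higher. Because S100A1 was selected on this comparison, its count is given as a description and nothing is read from it. The median log2 ratio of the 10 genes was -0.22, against -0.05 over all genes tested, with 3 of them above 0 and 7 below.

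S100A10, also called p11, is the partner that holds annexin A2 in a heterotetramer at the membrane. It was at 1510 CPM in sensitive and 723 CPM in resistant monoculture, and at 761 and 722 CPM in the sensitive and resistant cells of the coculture. As for S100A1, the sensitive monoculture stood above 3 populations that were close to each other. The ratio between sensitive cells was -0.99 on the log2 scale, 1.98-fold lower in coculture, where the level was 0.504 of that in monoculture (0.499 to 0.509), which is just inside the 2-fold limit.

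S100A8 and S100A9 form calprotectin, a metal-binding heterodimer abundant in neutrophils that can signal through TLR4 and AGER. S100A8 was at 45.6 CPM in sensitive and 35.5 CPM in resistant monoculture, and at 30.8 and 40.8 CPM in the sensitive and resistant cells of the coculture. S100A9 was at 16.3 CPM in sensitive and 11.6 CPM in resistant monoculture, at 9.21 CPM in cocultured sensitive cells, and at a level in cocultured resistant cells with an interval of 11.5 to 12.5 CPM. Both were lowest in sensitive coculture, with log2 ratios between sensitive cells of -0.55 and -0.76, neither past 2-fold. Over 11 alternative settings the S100A8 ratio ran from -1.07, in cells with under 15% mitochondrial UMIs, to -0.31, in cells thinned to 5000 UMIs. That of S100A9 ran from -1.07, at the same mitochondrial limit, to -0.35, in cells with 2 or more UMIs of their own transgene. Without the resistant cells of the authors' cluster 13, S100A8 was at 36.4 CPM in resistant coculture and 27.9 CPM in resistant monoculture. S100A9 was then at 9.05 and 8.36 CPM, where sensitive coculture had an interval of 8.52 to 9.94 CPM. Cluster 13 had the highest levels of both genes among resistant cells, and no sensitive cells were left out. The lower levels follow from that choice, so no order of the populations is read from them. S100A11, a partner of annexin A1, was at 2465 CPM in sensitive and 1916 CPM in resistant monoculture and at 1939 and 2082 CPM in the sensitive and resistant cells of the coculture, with a log2 ratio of -0.35 between sensitive cells.

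S100A4, which binds non-muscle myosin IIA, and S100A14, found mainly in epithelia, went the other way. S100A4 was at 117 CPM in sensitive monoculture and 159 in sensitive coculture, and S100A14 at 1725 and 2300 CPM, with log2 ratios of 0.44 and 0.41. In cells with under 15% mitochondrial UMIs these were 0.26 and 0.08. S100A13, which takes part in the release of FGF1, and the broadly expressed S100A16 differed less, with log2 ratios of 0.11 and -0.10 between sensitive cells, as did S100A6 at -0.10. Since S100A13 overlaps S100A1 on the opposite strand, and the handling of strand in counting is not given in the sources used here, reads of the shared 235 bases cannot be told apart with certainty. S100A13 was between 1169 and 1397 CPM in the 4 populations and did not have the high level that S100A1 had in sensitive monoculture.

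**Figure D2:**
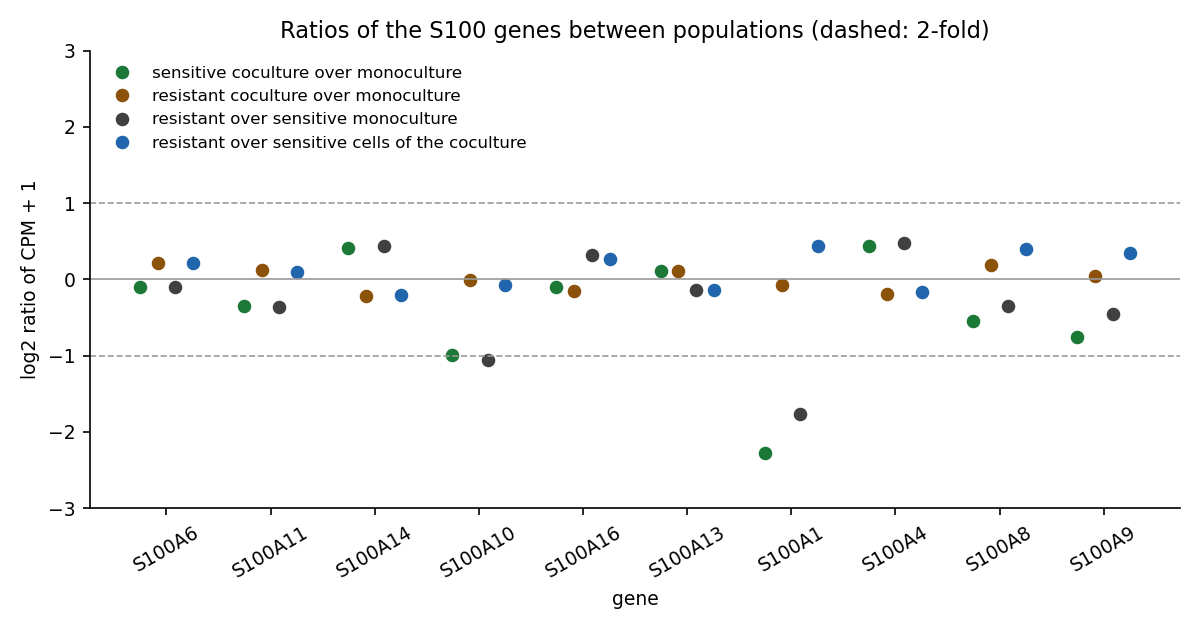
Log2 ratio of each S100 gene in the 4 comparisons between populations, with dashed lines at 2-fold and genes ordered by level in sensitive monoculture. S100A1 is past the lower line in the comparisons that have sensitive monoculture as their denominator (-2.28 and -1.76), S100A10 in the second of them (-1.06), and no gene is past either line in the other comparisons.

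Between resistant cells, coculture and monoculture differed little. None of the 10 genes was past 2-fold in either direction, and of 13156 genes tested 0.038% were past it higher and 0% lower. The 10 log2 ratios ran from -0.22 (S100A14) to 0.21 (S100A6), and S100A1 was at -0.08, a 1.06-fold lower level in coculture (1.03 to 1.08). In 5 of the 10 (S100A4, S100A6, S100A8, S100A11 and S100A14) the ratio was opposite in sign to that between sensitive cells with both counting intervals away from equal levels, as in 21.8% of 12244 genes and in 27.1% of the 6767 with a mean of at least 10 CPM. The difference between lineages was not tested.

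Between the monocultures, resistant cells had lower S100A1 (log2 ratio -1.76, 3.42-fold, 3.36 to 3.49) and lower S100A10 (-1.06, 2.09-fold, 2.07 to 2.10). These were the 2 genes of the 10 past 2-fold lower, and none was past it higher, where 4.11% and 2.17% of 12970 genes were past it lower and higher. This comparison and that between sensitive cells share the sensitive monoculture library, so a value particular to that library enters both. S100A1 was selected on the comparison between sensitive cells, which has the same sensitive monoculture level as its denominator. Its call between the monocultures is therefore a description, and nothing is read from the count of 2. The call of S100A1 was lost in cells with under 15% mitochondrial UMIs (-0.92). That of S100A10 was lost with TMM factors (-0.95), in G1 cells (-0.94), with phases weighted alike (-0.91) and in the same cells (-0.94). S100A4, S100A14 and S100A16 were higher in resistant monoculture, with log2 ratios of 0.48, 0.44 and 0.32. In cells with under 15% mitochondrial UMIs S100A14 was instead lower there, at 2465 CPM against 2496 CPM in sensitive monoculture, and S100A4 (178 against 165 CPM) and S100A16 (1693 against 1566 CPM) were closer together.

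Within the coculture, where both lineages came from 1 library, none of the 10 genes was past 2-fold, while 0.462% of 12774 genes were past it higher in resistant cells and 1.3% lower. The largest ratio was that of S100A1, 0.44 on the log2 scale and 1.37-fold higher in resistant cells (1.31 to 1.42), which is opposite in sign to its ratio between the monocultures. In cells with under 15% mitochondrial UMIs the S100A1 ratio was 0.96 (50.8 against 25.6 CPM), just inside the 2-fold limit. S100A8 and S100A9 were at 0.39 and 0.34, S100A16 at 0.27 and S100A14 at -0.20. Without the 55 resistant cells of cluster 13, its highest cluster, S100A9 was at 9.05 CPM in resistant cells. Sensitive cells, from which no cluster was left out, were at 9.21 CPM (8.52 to 9.94).

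The share of cells with an S100A1 UMI was compared after each cell had been thinned to 5000 UMIs, and every annotated cell had that many. In monoculture it was 47.1% of sensitive cells (45.4% to 48.8%, exact Clopper-Pearson interval) and 24.4% of resistant cells (23.4% to 25.3%). In coculture it was 16.7% of sensitive (15.1% to 18.4%) and 25.3% of resistant cells (24.3% to 26.4%). The unthinned shares were 81.5% and 74.7% in monoculture and 61.7% and 71.4% in coculture, sensitive cells first. The 2 resistant populations did not differ beyond counting error, and the order of the shares was that of the levels except between them. No cell type that should lack S100A1 was in these libraries, so a share from free RNA could not be measured.

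Sensitive monoculture cells also held more S100A1 UMIs per positive cell. Of its thinned cells 7.39% had 5 or more S100A1 UMIs (246 cells), against 0.198% (15 cells) in resistant monoculture, and 0.389% (8 cells) and 0.350% (22 cells) of the sensitive and resistant cells of the coculture. The 1% of cells with the most S100A1 held 11.5% of its UMIs in sensitive and 12.2% in resistant monoculture, and 20.7% and 12.7% in the sensitive and resistant cells of the coculture.

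**Figure D3:**
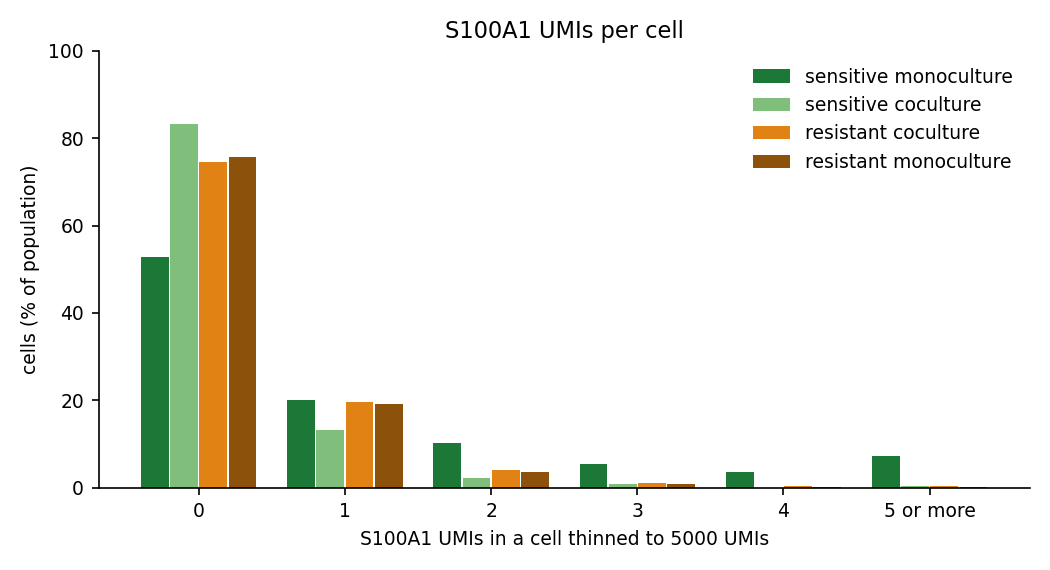
Share of the cells of each population with 0, 1, 2, 3, 4 or 5 or more S100A1 UMIs, each cell thinned to 5000 UMIs. Cells with 0 UMIs are 52.9% of sensitive monoculture and 83.3% of sensitive coculture, and cells with 5 or more are 7.39% of sensitive monoculture and under 1% of the others.

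Phase moved with the level. In sensitive monoculture S100A1 was at 243 CPM in G1, 102 in S and 110 in G2M, and in sensitive coculture at 57.9, 29.5 and 33.3 CPM. In resistant coculture it was at 72.8, 53.3 and 50.9 CPM and in resistant monoculture at 75.8, 57.8 and 52.7 CPM. G1 cells were the highest in each population, and at equal phase sensitive monoculture cells were above the other populations. Within a phase, the log2 ratio between sensitive cells was -2.05 in G1, -1.76 in S and -1.69 in G2M, and with the 3 phases weighted alike in every population it was -1.96.

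All 10 genes were lower in G2M than in G1 in every population, as were 49% of genes with 50 or more UMIs in sensitive and 39.1% in resistant monoculture, and 45.2% and 42.6% in the sensitive and resistant cells of the coculture. In S phase S100A4, S100A13, S100A14 and S100A16 were above their G1 level in both sensitive populations, and the other members were below it. S100A14 was at 2233 CPM in S and 1713 CPM in G1 of sensitive monoculture. In sensitive coculture the intervals of the 2 phases overlapped for S100A4, S100A13 and S100A16. In both resistant populations no member was higher in S than in G1. S100A8 and S100A9 had the lowest G2M over G1 log2 ratios in resistant coculture (-1.14 and -1.41), and S100A8 went from 55.5 CPM in G1 to 24.6 in G2M there. S100A6 ran from -0.47 to -0.72 over the 4 populations, S100A10 from -0.43 to -0.53 and S100A11 from -0.34 to -0.47. S100A13 lay between -0.11 and -0.19 in the 4 populations, and S100A4 was at -0.11 and -0.03 in sensitive monoculture and coculture, with counting intervals of the 2 phases that overlapped in both. S100A10 also kept its difference between sensitive cells within phases, with log2 ratios of -0.90 in G1, -0.71 in S and -0.81 in G2M.

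In sensitive cells S100A1 differed between clusters as much as between populations, by 5.29-fold in monoculture and 5.68-fold in coculture. In resistant cells its range over clusters was 2.49-fold in monoculture and 2.26-fold in coculture. The authors had deposited 14 clusters, which were made from these cells' genes, so levels by cluster are descriptions. In sensitive monoculture S100A1 was at 263 CPM in cluster 4 (1945 cells), 228 in cluster 8 (681 cells), 255 in cluster 12 (156 cells), 92.5 in cluster 7 (232 cells) and 49.7 in cluster 3 (267 cells). In sensitive coculture it was at 38.4 CPM in cluster 3 (1087 cells), 29.2 in cluster 7 (617 cells) and 166 in cluster 4 (84 cells). Cluster 4 held 58.4% of sensitive monoculture cells and 4.08% of sensitive coculture cells, and cluster 3 held 8.02% and 52.8%.

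Within the same cluster the difference between sensitive cells was smaller. It was 1.29-fold lower in coculture in cluster 3 (1.16 to 1.45), 1.59-fold in cluster 4 (1.44 to 1.75) and 3.17-fold in cluster 7 (2.86 to 3.52), whose cells were nearly all outside G1. In resistant cells S100A1 stayed between 35.1 and 89.1 CPM in every cluster with at least 50 cells. S100A10 had log2 ratios of -0.22, -0.22 and -0.81 in clusters 3, 4 and 7. S100A8 and S100A9 went opposite ways by cluster. They were 2.53-fold and 4.01-fold lower in coculture in cluster 3, and 2.02-fold and 1.58-fold higher in cluster 4.

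**Figure D4:**
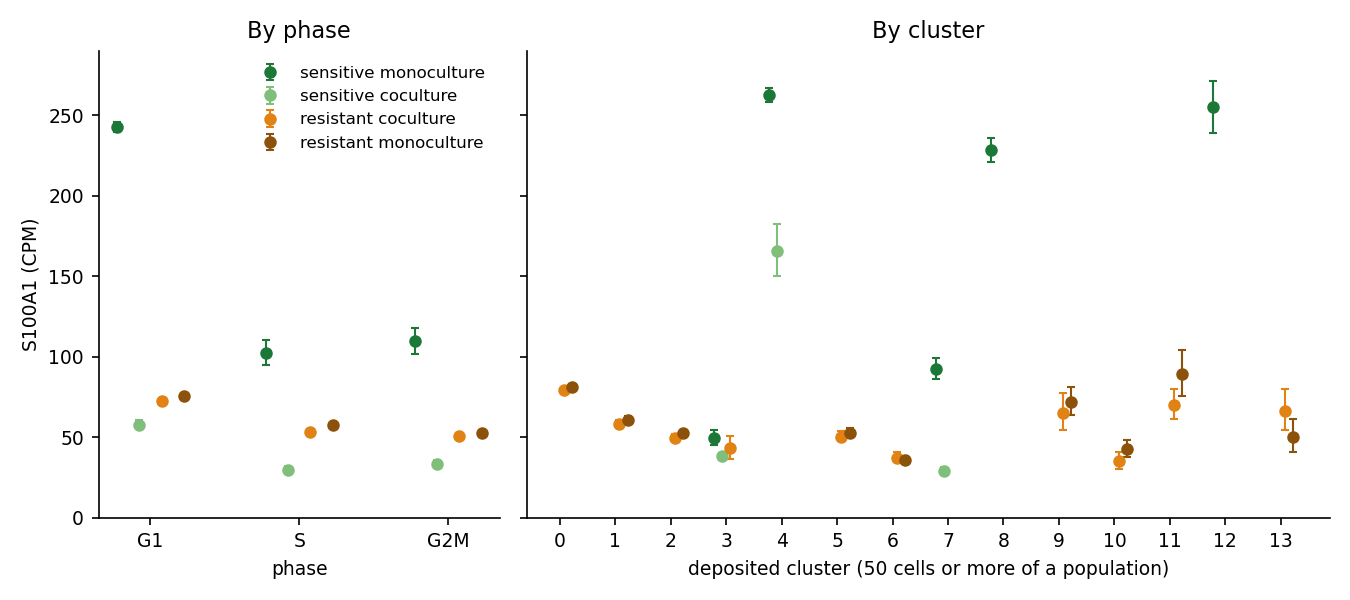
Level of S100A1 in CPM by phase (left) and by deposited cluster (right, populations with at least 50 cells in the cluster), with 95% Poisson intervals. Sensitive monoculture cells are highest in every phase, and they reach 228 to 263 CPM in clusters 4, 8 and 12 but 49.7 CPM in cluster 3, near the other populations of that cluster.

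Depth and mitochondrial content also moved with S100A1, in sensitive monoculture and in the other populations. In sensitive monoculture it was at 345, 285 and 128 CPM by tertiles of UMIs per cell, from the shallowest to the deepest cells. By tertiles of mitochondrial percent it was at 158, 259 and 261 CPM there, from the lowest to the highest. The mitochondrial tertiles were at 25.2, 39.4 and 74.9 CPM in sensitive coculture. They ran from 49.6 to 79.1 CPM in resistant coculture and from 50.0 to 81.9 CPM in resistant monoculture. By depth the level fell from 77.5 to 30.1, 79.0 to 50.7 and 70.5 to 63.0 CPM in these populations, in that order. In cells with under 15% mitochondrial UMIs it was at 101 CPM (461 cells) in sensitive and 52.9 CPM (3445 cells) in resistant monoculture, and at 25.6 CPM (729 cells) and 50.8 CPM (3029 cells) in the sensitive and resistant cells of the coculture. The log2 ratio between sensitive cells was then -1.94, and that of resistant over sensitive monoculture -0.92, no longer past 2-fold. The part of depth, mitochondrial content and phase in the levels was not tested.

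Barcodes outside the annotation gave a further reading of the same libraries. Barcodes with 30% or more mitochondrial UMIs had S100A1 at 142 CPM in the sensitive monoculture library (4489 barcodes), 71.1 in the coculture library (6172 barcodes) and 102 in the resistant monoculture library (2187 barcodes), per 1000000 UMIs that are not mitochondrial. On that scale the annotated cells were at 280.2 and 77.8 CPM in sensitive and resistant monoculture and at 54.9 and 73.4 CPM in the sensitive and resistant cells of the coculture. The sensitive monoculture library was the highest on both readings. The 519 coculture barcodes with both transgenes had S100A1 at 54.5 CPM of all UMIs, between the levels of the sensitive and the resistant cells of that library.

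S100A8 and S100A9 were concentrated in few cells. In resistant cells, cluster 13 had S100A8 at 555 CPM in coculture (55 cells) and 1089 CPM in monoculture (51 cells), and S100A9 at 351 and 456 CPM. Every other cluster of resistant cells was at or below 93.8 CPM of S100A8 and 29.6 CPM of S100A9. Cluster 13 was 0.874% of resistant coculture cells with 11.6% of their S100A8 and 25.0% of their S100A9 UMIs, and 0.675% of resistant monoculture cells with 21.9% and 28.2%. Cluster 13 also had the highest S100A4, S100A6, S100A10 and S100A11 in both resistant populations. Since levels of these genes may have helped to define the cluster, this is a description of it.

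Without cluster 13, resistant cells had S100A8 at 36.4 CPM with sensitive cells and 27.9 CPM alone, and S100A9 at 9.05 and 8.36 CPM. Sensitive cells had their highest S100A8 and S100A9 in cluster 3 of the monoculture (72.8 and 37.0 CPM) and cluster 4 of the coculture (111 and 27.7 CPM). The markers of myeloid cells, which express both genes strongly, summed to under 3 CPM in each of the 4 populations, with PTPRC at or below 0.0282 CPM in each.

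**Figure D5:**
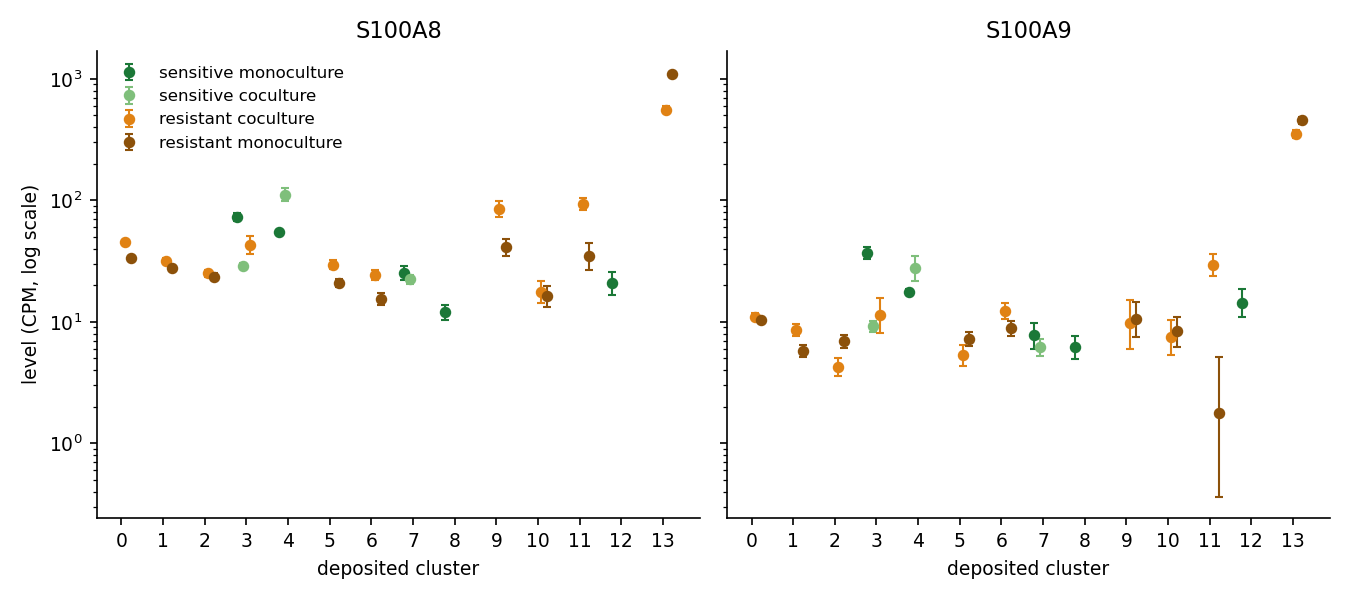
Levels of S100A8 (left) and S100A9 (right) by deposited cluster and population, in CPM on a log axis, with 95% Poisson intervals. Cluster 13 of the resistant cells stands at 555 and 1089 CPM of S100A8 and 351 and 456 CPM of S100A9, above all other clusters.

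Among single cells thinned to 5000 UMIs, the 45 pairs of the 10 genes had Spearman correlations with medians of 0.07 to 0.09 in the 4 populations. Values this low in sparse counts are no finding. The pair S100A14 and S100A16, which are neighbours on the chromosome, had the highest value in each population, 0.34 to 0.38. S100A1 and S100A13, which overlap, were at 0.01 to 0.08. S100A1 and S100A14 had the lowest Spearman value, -0.21, in sensitive monoculture. By Pearson correlation the highest pair was S100A8 and S100A9 in sensitive monoculture (0.45), resistant coculture (0.62) and resistant monoculture (0.73). In sensitive coculture S100A8 and S100A9 were at 0.27, below S100A14 and S100A16 at 0.36. The cells of a population share 1 library, so these are descriptions.

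Of the 10 other S100 genes listed, S100P, which can bind AGER, was the only 1 at 10 CPM or more in every population. It was at 17.1 CPM in sensitive and 71.6 CPM in resistant monoculture and at 45.1 and 65.7 CPM in the sensitive and resistant cells of the coculture, the reverse order of S100A1 between the monocultures. Its log2 ratio was 1.35 between sensitive cells, 2.63-fold higher in coculture (2.48 to 2.80), and between the monocultures it was 4.18-fold higher in resistant cells (3.98 to 4.40). In sensitive monoculture S100P was at 145 CPM in cluster 12 and at most 24.0 CPM in the others with at least 50 cells. S100A2 was at 3.44 to 4.33 CPM, and S100A3, S100A5, S100A7 and S100A12 were under 1 CPM in every population. At that level the added 1 CPM keeps a gene from passing 2-fold. Without it S100A7 was 13.1-fold higher (4.38 to 64.7) in resistant than in sensitive monoculture, at 0.410 and 0.0312 CPM. The latter rests on 3 UMIs. S100B, known from glia and named after its value was seen, had 0 UMIs in sensitive monoculture, which allows up to 0.0312 CPM at a limit of 3 counts.

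Of 17 genes listed as partners or receptors of S100 proteins, 13 had enough UMIs between sensitive cells and none of these was past 2-fold, where 1.53% of all genes tested were past it higher and 1.04% lower. Among those with a mean of at least 10 CPM, the largest ratios were those of MYH9, non-muscle myosin IIA (-0.78), ANXA2, the partner of S100A10 (-0.67), and the annexins ANXA6 (-0.54) and ANXA11 (-0.17). ANXA2 was at 949 CPM in sensitive and 258 CPM in resistant monoculture, and at 597 and 285 CPM in the sensitive and resistant cells of the coculture. In the coculture ANXA2 was 2.09-fold lower in resistant than in sensitive cells, while S100A10 was 1.05-fold lower. Between the monocultures ANXA2 (-1.88) and MYH9 (-1.43) were past 2-fold lower in resistant cells, 2 of the 14 with enough UMIs there, where 4.11% of all genes tested were.

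Of 20 other EF-hand genes, 19 had enough UMIs between sensitive cells and none was past 2-fold (1.53% higher and 1.04% lower of all genes tested), with 5 above and 14 below 0 and a median of -0.29, against -0.05 over all genes. MYL12A and MYL12B, regulatory light chains of non-muscle myosin, had log2 ratios of -0.89 and -0.86, and NUCB2, nucleobindin 2, -0.73. MYL12A was at 388 CPM in sensitive and 215 CPM in resistant monoculture and at 209 and 193 CPM in the sensitive and resistant cells of the coculture, so it too was highest in sensitive monoculture. Between the monocultures 2 of the 20 were past 2-fold lower, EFHD2 (-1.71) and, just past the limit, EFHD1 (-1.03), where 4.11% of all genes tested were.

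Of 78 genes measured on chromosome 1 from S100A10 to RPS27 (GRCh37, the listed S100 genes included), 26 had enough UMIs between sensitive cells, with 10 above and 16 below 0 and a median of -0.09. The 1 gene past 2-fold lower was S100A1, which was selected on this comparison, and the 1 past 2-fold higher was the ribosomal protein gene RPS27, where 1.04% and 1.53% of all genes tested were. RPS27 was at 2710 CPM in sensitive monoculture and 6925 in sensitive coculture. Of the others outside the S100 family with a mean of at least 10 CPM, the largest were CREB3L4 (-0.64) and the zinc transporter SLC39A1 (-0.40).

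Across the 12 combinations of population and phase, which come from 3 libraries, 2330 genes averaging 50 CPM or more were compared with S100A1. The most like it were TMEM59 (Pearson r = 0.98), LAMP1 (0.98), LAMP2 (0.97), MT-ND2 (0.96) and CERS2 (0.96). LAMP1, a lysosomal membrane protein, was at 158 CPM in sensitive and 104 CPM in resistant monoculture and at 93.2 and 100.1 CPM in the sensitive and resistant cells of the coculture. Among the other 9 S100 genes, S100A10 was the most like S100A1 (0.88), and S100A4 the least (-0.56).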

How the data were processed

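Single-cell RNA was measured with 10X Genomics 3' chemistry in 3 libraries. The authors aligned reads and made UMI counts with CellRanger (3.0.2 in the submitters' processing notes) on GRCh37. The deposited counts carry no normalization and no test was fitted to them. The deposited annotation gives each cell's total count, its mitochondrial percent, and the phase, cluster and population that the authors assigned with Seurat. A further 12 columns of it were not used. The authors had filtered annotated cells on genes, UMIs and mitochondrial percent (under 30), removed doublets predicted by Scrublet and kept cells with a transgene. No doublet caller was run again, and 519 coculture barcodes with both transgenes are outside the annotation.

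Totals leave out gene rows with no symbol (0.523% to 0.591% of UMIs). UMIs were summed per population (70896822 to 270891547), phase or cluster of at least 50 cells and scaled to CPM. Log2 ratios used a pseudocount of 1 CPM, and 2-fold served as the call for genes with at least 50 UMIs. Intervals are exact at 95% (Poisson, Clopper-Pearson, or binomial for a ratio of counts) and cover counting error only. For shares of cells, 5000 UMIs were drawn from each cell at random without replacement. The ratio script was tested on simulated data. Positions are from GENCODE 44 lifted to GRCh37, and upstream sequences from RefSeq (GRCh38.p14 windows, matched to GRCh37). The motifs were sought on both strands.

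The members and lists were chosen with earlier results of these data known. The genes named are the 10 members, other S100 genes with at least 50 UMIs, the 4 partners, 3 EF-hand genes and 3 chromosome 1 neighbours with the largest absolute log2 ratio between sensitive cells (mean of at least 10 CPM), and the 5 genes most like S100A1. S100B, EFHD1, EFHD2 and the marker genes are named after their values were seen. Alternatives covered pseudocount, scaling (TMM factors from edgeR 4.0.16 in R 4.3.3), phase, transgene threshold, summing, thinning, free RNA, UMI minimum and fold. Python 3.11.15, numpy 2.4.6, scipy 1.17.1 and pandas 2.3.3 were used.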

Additional observations from a re-analysis of the deposited data

Results flagged for a closer look

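In 5 of the 10 S100 genes the coculture and monoculture levels differed in opposite directions in the sensitive and the resistant lineage, with both counting intervals away from equal levels. By the same rule 21.8% of 12244 genes did so, and 27.1% of the 6767 with a mean of at least 10 CPM. The sensitive minus the resistant log2 ratio was 0.64 for S100A4 (0.44 and -0.20), 0.64 for S100A14 (0.41 and -0.22), -0.31 for S100A6 (-0.10 and 0.21), -0.74 for S100A8 (-0.55 and 0.19) and -0.47 for S100A11 (-0.35 and 0.12). S100A9 also had opposite signs, but its counting interval between resistant cells included equal levels. The opposition ended for S100A6 with phases weighted alike (0.04 between sensitive cells), and for S100A8 in cells with under 15% mitochondrial UMIs (33.5 CPM in resistant coculture and 33.9 CPM in resistant monoculture). Within clusters it ended too where sensitive cells were higher in coculture, which held for S100A6 in clusters 3, 4 and 7 (1.31-, 1.06- and 1.12-fold), for S100A11 in clusters 3 and 4 (1.03- and 1.06-fold) and for S100A8 in cluster 4 (2.02-fold). The interval between sensitive cells included equal levels for S100A4 in cluster 4 (0.908 to 1.15) and for S100A8 in cluster 7 (0.751 to 1.03). With 1 library per condition, the difference was not tested.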

How the results depend on the processing

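The log2 ratio of S100A1 between sensitive cells, -2.28, stayed below -1 in the 11 alternatives computed over all phases, scalings and cell sets, from -2.45 (cells thinned to 5000 UMIs) to -1.94 (cells under 15% mitochondrial, chosen after seeing the data). It was -2.08 with a pseudocount of 10 CPM, -2.05 in G1 cells, -1.96 with phases weighted alike, -2.41 in cells with 2 or more UMIs of their own transgene and -2.34 with 10% of the other lineage subtracted. Within clusters 3, 4 and 7, also chosen after seeing the data, it was -0.36, -0.66 and -1.63, so that it was past 2-fold in cluster 7 only.

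The number of the 10 genes past 2-fold between sensitive cells was 1, and was 2 after thinning (with S100A10), 3 in cells under 15% mitochondrial (S100A1, S100A8 and S100A9) and 3 at a fold of 1.5. Between the monocultures it was 2, and was 1 (S100A1) with TMM factors, in G1 cells and with phases weighted alike, and 0 in cells under 15% mitochondrial. It was 0 in the other comparisons under each alternative. The share of all genes past the fold is given for the main settings only, so nothing is read from these changes in count. At 2000 UMIs per cell the share of cells with an S100A1 UMI was 29.9% of sensitive and 11.7% of resistant monoculture cells, and 8.45% and 11.7% of the sensitive and resistant cells of the coculture. Of the other 9 genes, over the 11 alternatives without the clusters, S100A6 alone changed sign between sensitive cells, to 0.04 with phases weighted alike. Within clusters S100A6 (clusters 3, 4 and 7), S100A8 and S100A9 (cluster 4), S100A11 (clusters 3 and 4) and S100A16 (cluster 3) were higher in coculture. TMM moved the median of all genes by under 0.1 on the log2 scale.

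No paired analysis was possible because each condition had 1 library. Leaving out a replicate was not possible for the same reason. Depth limits S100A9 most, at 653 UMIs in sensitive coculture. The cause of these shifts was not tested.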
